A study of Mus musculus with 12 samples.

Results

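The 52 genes described here carry cells through DNA replication and division. They were taken from a list of gene symbols, and all 52 were found among the 16805 genes counted in the first table of the series and the 16954 genes counted in the second. By role they comprised 16 genes of DNA replication, 4 genes of S-phase entry, 29 genes of mitosis and its preparation, and 3 D-type cyclins. The replication and entry genes together are called the 20 S-phase members. All 52 matched a RefSeq gene by Entrez identifier, and every one is annotated as protein coding.

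RNA was sequenced from spleen cells of wild-type mice carrying tumors, some of which had received CTT, a cryo-thermal therapy that freezes and heats the tumor. Cells labelled as neutrophils were captured by way of Ly6G, a protein on the surface of neutrophils in the mouse, using a PE-coupled antibody, from mice without therapy (control, 3 libraries) and from mice 12 h after CTT (3 libraries). Cells labelled as monocytes were captured in the same manner by CCR2, the receptor that draws inflammatory monocytes out of the marrow, 5 days after CTT, from mice without (3 libraries) or with (3 libraries) anti-Ly6G, an antibody given to deplete neutrophils. All 4 groups were wild-type spleen, and both CCR2-selected groups had received CTT, so that comparison concerns anti-Ly6G and not CTT. Replicates were labelled biological, but neither the number of mice behind a library nor their age was stated, and p-values therefore describe the spread among the libraries at hand.

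A cell that divides first raises D-type cyclins, which with CDK4 and CDK6 inactivate the retinoblastoma protein and free E2F factors to switch on cyclin E and the replication genes. Origins are licensed by Cdc6, Cdt1 and the Mcm helicase, and are then fired and copied. Later the complex of B-Myb, MuvB and FoxM1 switches on the mitotic genes, many of which hold a short element named CHR near their start. Mature neutrophils are post-mitotic, while their precursors, erythroblasts and activated lymphocytes divide, and the mouse spleen can hold all of these.

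Promoters of 3 mitotic and 3 replication members are printed because most mitotic members moved together after anti-Ly6G and because the classes hold different motifs. Each sequence is the RefSeq window of 300 bases (250 before a start site and 50 after it, build GRCm38.p6), read on the gene's own strand from 5′ to 3′. The start site used need not be the outer end of the annotated gene. In Aurka the whole window lies within the annotated gene (chr2:172356190-172370886). In Mcm5, annotated from position 75109468, the start site used also lies within the gene. Capitals mark matches to 3 motifs searched on both strands: E2F (TTTCCCGC, TTTCGCGC, TTTGCCGC or TTTGGCGC), CHR (TTTGAA) and the CCAAT box (CCAAT), the element bound by NF-Y. Ccnf lies at chr17:24251360-24251659 on the minus strand, Plk1 at chr7:122159185-122159484 on the plus strand and Aurka at chr2:172370521-172370820 on the minus strand. Mcm3 lies at chr1:20820263-20820562 on the minus strand, Mcm5 at chr8:75109259-75109558 on the plus strand and Mcm6 at chr1:128359656-128359955 on the minus strand. The long runs of capitals in Mcm5 and Mcm6 each hold 2 overlapping E2F matches on opposite strands.
Ccnf: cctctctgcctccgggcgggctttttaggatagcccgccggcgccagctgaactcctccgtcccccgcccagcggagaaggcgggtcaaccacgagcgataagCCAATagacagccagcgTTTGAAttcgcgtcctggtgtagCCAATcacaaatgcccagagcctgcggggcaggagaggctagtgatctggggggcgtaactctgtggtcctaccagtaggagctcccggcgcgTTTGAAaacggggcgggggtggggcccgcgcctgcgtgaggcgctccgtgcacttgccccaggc
Plk1: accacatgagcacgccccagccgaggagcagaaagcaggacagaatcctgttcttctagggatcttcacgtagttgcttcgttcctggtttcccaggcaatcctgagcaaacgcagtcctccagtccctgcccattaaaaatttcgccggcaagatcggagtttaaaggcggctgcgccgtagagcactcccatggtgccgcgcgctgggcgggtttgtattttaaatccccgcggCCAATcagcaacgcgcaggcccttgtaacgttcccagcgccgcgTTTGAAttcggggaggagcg
Aurka: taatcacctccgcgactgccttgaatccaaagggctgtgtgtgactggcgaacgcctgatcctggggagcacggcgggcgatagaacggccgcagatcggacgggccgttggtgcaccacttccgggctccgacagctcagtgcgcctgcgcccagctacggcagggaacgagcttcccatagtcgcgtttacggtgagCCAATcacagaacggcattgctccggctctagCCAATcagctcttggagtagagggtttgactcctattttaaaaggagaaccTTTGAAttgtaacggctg
Mcm3: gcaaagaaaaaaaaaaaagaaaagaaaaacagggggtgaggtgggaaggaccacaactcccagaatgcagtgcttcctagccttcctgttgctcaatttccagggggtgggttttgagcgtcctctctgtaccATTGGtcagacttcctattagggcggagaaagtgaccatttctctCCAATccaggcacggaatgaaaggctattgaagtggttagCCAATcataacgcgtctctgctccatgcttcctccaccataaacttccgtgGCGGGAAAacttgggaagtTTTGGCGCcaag
Mcm5: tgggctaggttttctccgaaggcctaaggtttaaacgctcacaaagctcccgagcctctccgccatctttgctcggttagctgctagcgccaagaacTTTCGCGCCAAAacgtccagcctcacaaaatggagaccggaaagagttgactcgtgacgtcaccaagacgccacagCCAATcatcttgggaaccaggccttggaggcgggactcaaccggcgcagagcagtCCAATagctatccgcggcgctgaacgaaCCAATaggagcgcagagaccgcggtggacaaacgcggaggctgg
Mcm6: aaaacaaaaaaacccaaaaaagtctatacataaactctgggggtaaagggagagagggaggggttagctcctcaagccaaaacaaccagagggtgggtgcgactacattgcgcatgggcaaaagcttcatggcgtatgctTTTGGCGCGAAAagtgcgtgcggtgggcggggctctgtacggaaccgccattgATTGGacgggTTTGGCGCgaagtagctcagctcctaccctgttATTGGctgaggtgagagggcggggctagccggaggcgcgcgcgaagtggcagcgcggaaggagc

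The mitotic promoters shown hold CHR and CCAAT matches and no E2F match, and the replication promoters shown hold E2F and CCAAT matches and no CHR match. In Aurka the CHR match begins 33 bases after the start site of its window and in Plk1 31 bases after it, each downstream of its CCAAT matches. Of the members, 42 had a promoter in the RefSeq table. A CHR match was present in 18 of 24 mitotic promoters (75.0% of genes), in 2 of 14 replication promoters (14.3%) and in 20.2% of all 27025 genes with a promoter in the table. An E2F match was present in 6 of 14 replication promoters (42.9%), in 1 of 24 mitotic promoters (4.2%, Cdk1) and in 2.6% of all genes. CCAAT was present in 21 of 24 mitotic promoters (87.5%) and 10 of 14 replication promoters (71.4%), and in 41.1% of all genes. A match is a string of letters in these windows and no measure of binding.

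**Figure D1:**
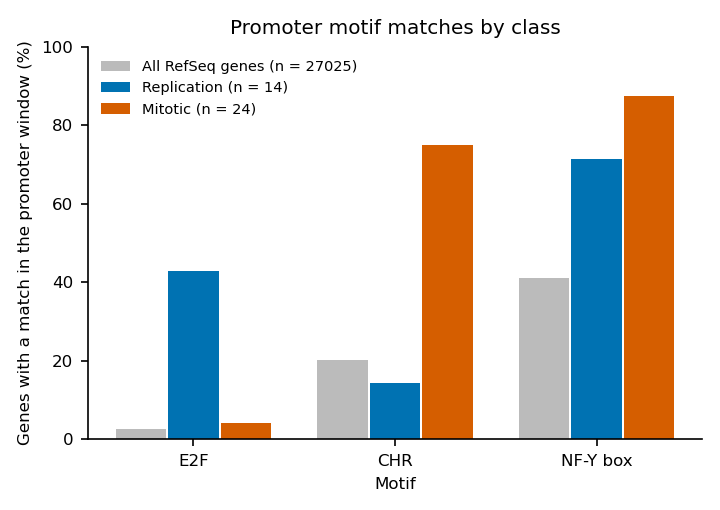
Share of genes (percent, y axis) whose promoter window holds a match to each motif (x axis; the NF-Y box is the CCAAT box), for all RefSeq genes in the table, 14 replication members and 24 mitotic members. CHR matches stand at 75.0% in the mitotic class and 14.3% in the replication class, and E2F matches at 4.2% and 42.9%.

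Before the comparisons, the libraries themselves were compared. The 6 Ly6G-selected libraries held 30942849 to 34935547 counted reads and the 6 CCR2-selected libraries 31865982 to 35956571. All 52 members had enough counts to be tested in both cell types. Control replicate 1 of the Ly6G-selected cells stood apart: across genes its log2 CPM (read counts scaled by TMM to a common library size) correlated at a Pearson r of 0.924 to 0.962 with the other 5 libraries, which correlated with each other at 0.981 or above. The selected cells were mixtures by their markers. In Ly6G-selected cells Ly6g itself read 9.52 to 25.5 CPM, and the 10 B cell markers, all detected, summed to 3140 to 7903 CPM. In CCR2-selected cells Ccr2 read 190 to 587 CPM, the 10 red pulp macrophage markers summed to 7643 to 15902 CPM and the 10 B cell markers to 2956 to 5627 CPM. In bulk RNA of this kind, fewer dividing cells and less RNA per dividing cell cannot be told apart.

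On the length-scaled FPKM scale, members ranged widely in level in both cell types. Pcna, the sliding clamp of DNA polymerases, stood first with a median of 140 FPKM over the 6 Ly6G-selected libraries and 137 FPKM over the CCR2-selected ones. Ccnd3, cyclin D3, was second with medians of 74.9 and 113 FPKM. Cenpf, a kinetochore protein, had the lowest median in Ly6G-selected cells (2.05 FPKM), and Tyms, thymidylate synthase, the lowest in CCR2-selected cells (4.01 FPKM).

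**Figure D2:**
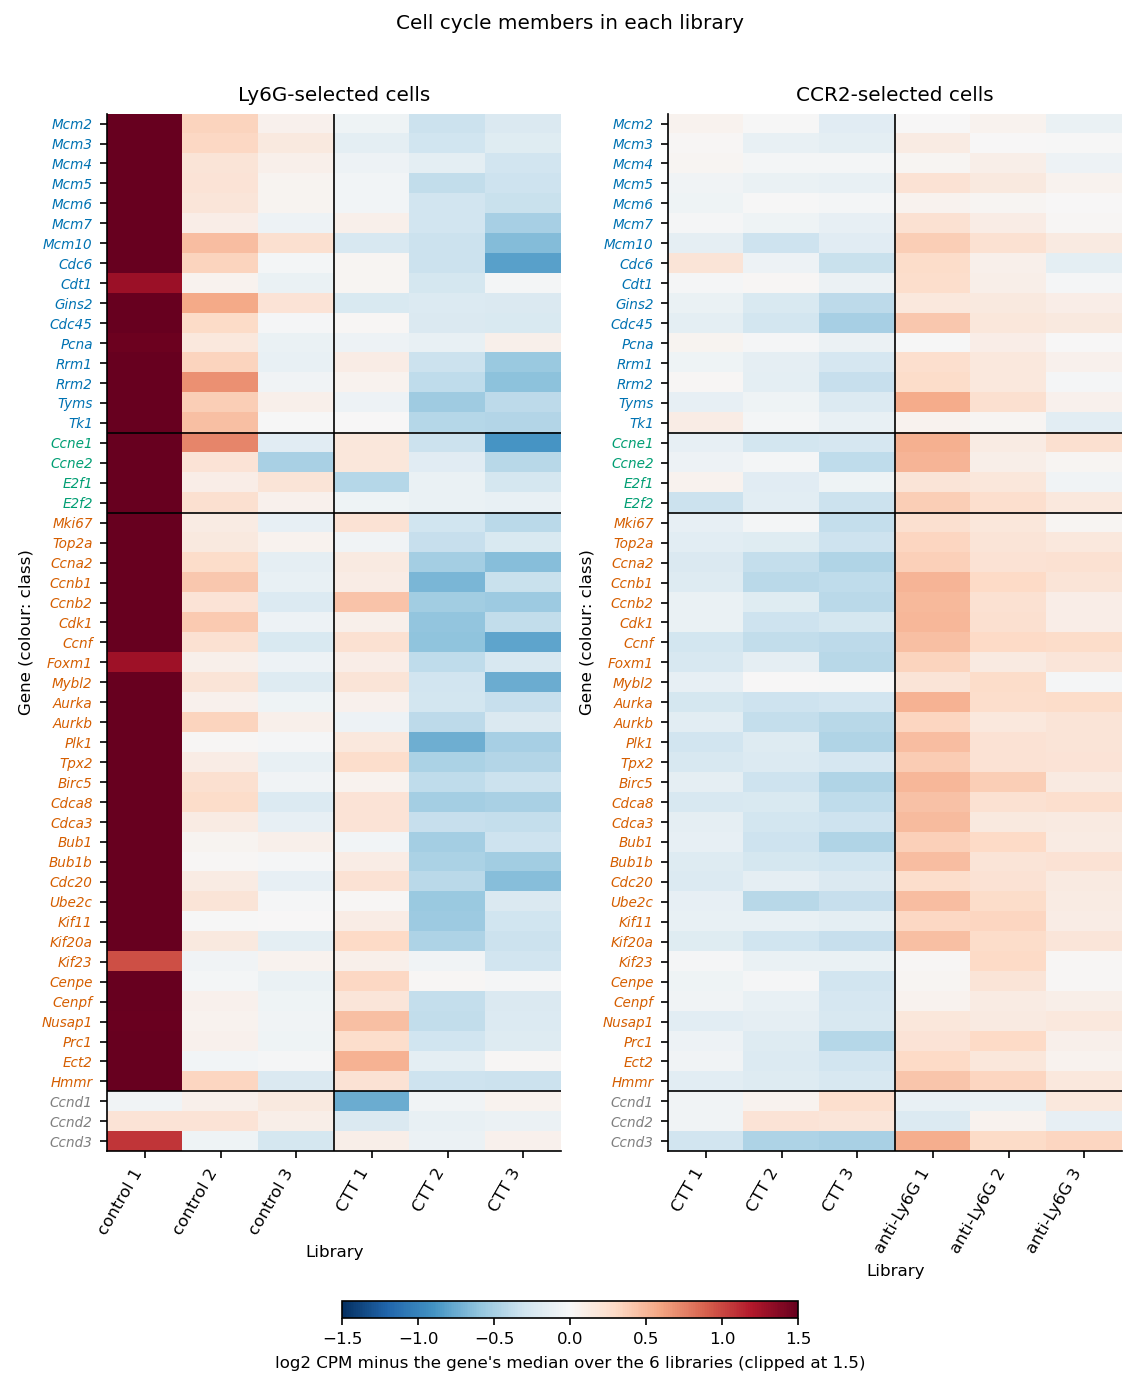
Level of each of the 52 members (rows, coloured by class from replication at the top through S-phase entry and mitotic to D-type cyclins) in each of the 12 libraries (columns), as log2 CPM minus the gene's median over the 6 libraries of that cell type, clipped at 1.5. Control replicate 1 is the dark column on the left, and the anti-Ly6G libraries on the right are above the CTT libraries for most mitotic rows.

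In CCR2-selected cells 5 days after CTT, most mitotic genes and a minority of replication genes rose in mice that received anti-Ly6G. Of the 52 members 31 rose and 0 fell (edgeR's quasi-likelihood test, Benjamini-Hochberg adjusted p below 0.05 over 13294 genes), where 10.2% of all tested genes rose and 5.12% fell. The calls comprised 24 of 29 mitotic genes, 4 of 16 replication genes, 2 of 4 entry genes and 1 of 3 D-type cyclins. The median log2 fold change was 0.50 for mitotic genes (0.19 to 0.69), 0.17 for replication genes (−0.01 to 0.54) and 0 for all genes tested, and 49 members had a positive value, against 49.2% of all genes. The difference between the classes was not tested. For 40 members the 3 anti-Ly6G libraries were all above the 3 CTT libraries, against 20.6% of all genes, and 28 of these were mitotic and 8 replication genes.

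Summed over the class, mitotic members read 2072, 2044 and 1838 CPM after CTT alone and 2852, 2662 and 2491 CPM with anti-Ly6G. The groups did not overlap, with means of 1985 ± 128 and 2668 ± 180 CPM (SD, n = 3 each), a ratio of 1.34. Replication members summed to 1501, 1438 and 1364 CPM and to 1678, 1614 and 1506 CPM, a ratio of 1.11, and the lowest anti-Ly6G library lay just above the highest CTT library. The mitotic sum divided by the replication sum was 1.38, 1.42 and 1.35 after CTT alone and 1.70, 1.65 and 1.65 with anti-Ly6G. These sums and ratios are descriptions of the chosen genes and carry no test.

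**Figure D3:**
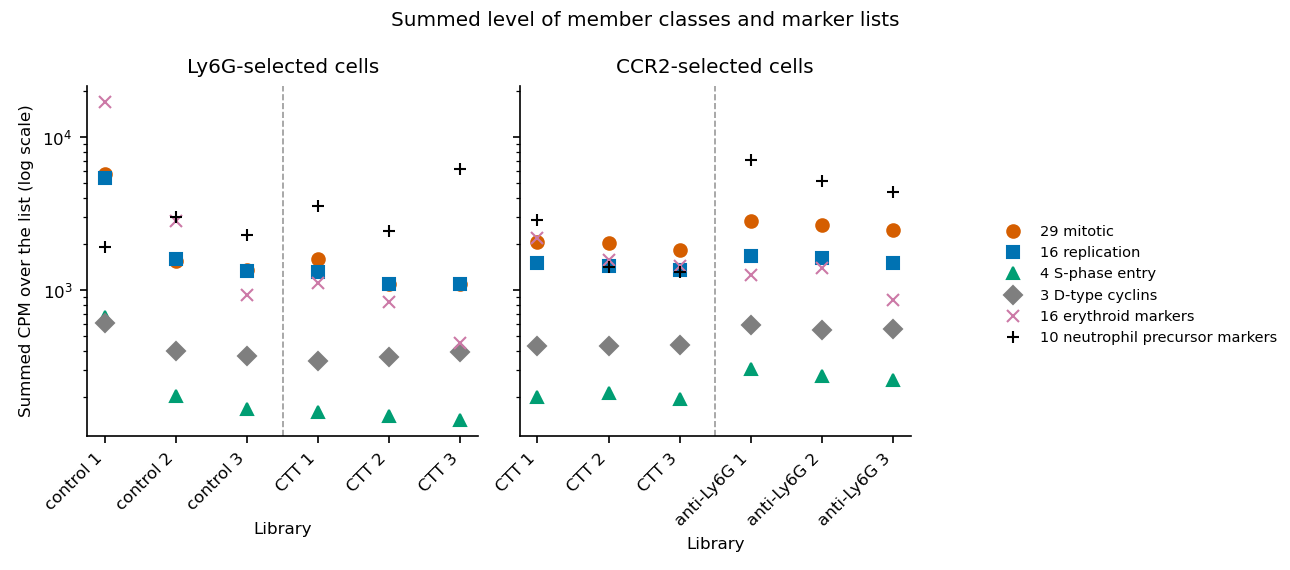
Summed CPM (log scale) of the 4 member classes and of 16 erythroid and 10 neutrophil precursor markers in each library (x axis), with a dashed line between the groups of each cell type. Control replicate 1 has the highest mitotic, replication and erythroid sums, and on the right mitotic and neutrophil precursor sums are higher in each anti-Ly6G library than in any CTT library.

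Among mitotic genes Ccnf and Ccna2 had the smallest p. Ccnf (Entrez 12449), cyclin F, the substrate-recognition part of a ubiquitin ligase, read 29.2, 27.3 and 26.9 CPM after CTT alone and 48.5, 43.4 and 42.8 CPM with anti-Ly6G. It rose by 0.69 on the log2 scale (SE 0.08, edgeR adjusted p = 0.000905), and the groups lay far apart relative to their spread. Ccna2, cyclin A2, which drives both replication and entry into mitosis, read 84.2, 76.4 and 71.5 CPM against 125, 113 and 114 CPM. Its log2 fold change was 0.60 (SE 0.08, edgeR adjusted p = 0.00149), again with no overlap. Ccnb1, cyclin B1, the partner of Cdk1 at mitotic entry, read 41.1, 35.6 and 36.3 CPM against 67.1, 58.3 and 54.2 CPM. It rose by 0.67 (SE 0.10, edgeR adjusted p = 0.00262), and Cdk1 itself, the mitotic kinase, rose by 0.51 (adjusted p = 0.0156).

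Spindle kinases and their partners rose by a similar size. Aurka, the Aurora A kinase of the spindle poles, read 22.8, 22.1 and 22.4 CPM after CTT alone and 39.2, 33.0 and 33.1 CPM with anti-Ly6G. That is a difference of 0.65 on the log2 scale (SE 0.09, edgeR adjusted p = 0.00223), with anti-Ly6G replicate 1 the highest library. Tpx2, the spindle assembly factor that activates Aurora A, read 56.5, 57.8 and 55.9 CPM against 86.7, 77.7 and 76.8 CPM. It rose by 0.50 (SE 0.07, edgeR adjusted p = 0.00183), and the groups did not overlap. Cdca8, borealin of the chromosomal passenger complex, read 40.6, 40.9 and 36.8 CPM against 64.9, 55.8 and 56.7 CPM. It rose by 0.59 (SE 0.08, edgeR adjusted p = 0.00231), as did its complex partners Aurkb (0.54) and Birc5 (0.64).

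Of the other mitotic genes, Plk1, the Polo-like kinase, rose by 0.61, Kif20a, a kinesin of cytokinesis, by 0.58, and Bub1 and Bub1b of the spindle checkpoint by 0.56 and 0.55. Cdc20 and Ube2c, an activator and an E2 enzyme of the anaphase-promoting complex, rose by 0.39 and 0.58. Foxm1, a factor that drives mitotic genes, rose by 0.48. Top2a, the topoisomerase that untangles sister chromatids, read 281, 276 and 254 CPM after CTT alone and 392, 359 and 351 CPM with anti-Ly6G. Its log2 fold change was 0.44 (SE 0.07, edgeR adjusted p = 0.00353), and the groups did not overlap.

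The 5 mitotic genes that did not pass were Mki67, Cenpf, Cenpe, Kif23 and Mybl2, with log2 fold changes of 0.19 to 0.31. Mki67, the nuclear protein Ki-67 used as a marker of dividing cells, read 512, 546 and 436 CPM after CTT alone and 657, 626 and 566 CPM with anti-Ly6G. All 3 anti-Ly6G libraries were above the CTT libraries, and the log2 fold change was 0.31 (SE 0.09, edgeR adjusted p = 0.0561). Cenpf had a log2 fold change of 0.22 (adjusted p = 0.0695) and Mybl2, the B-Myb factor, of 0.19 (adjusted p = 0.194).

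**Figure D4:**
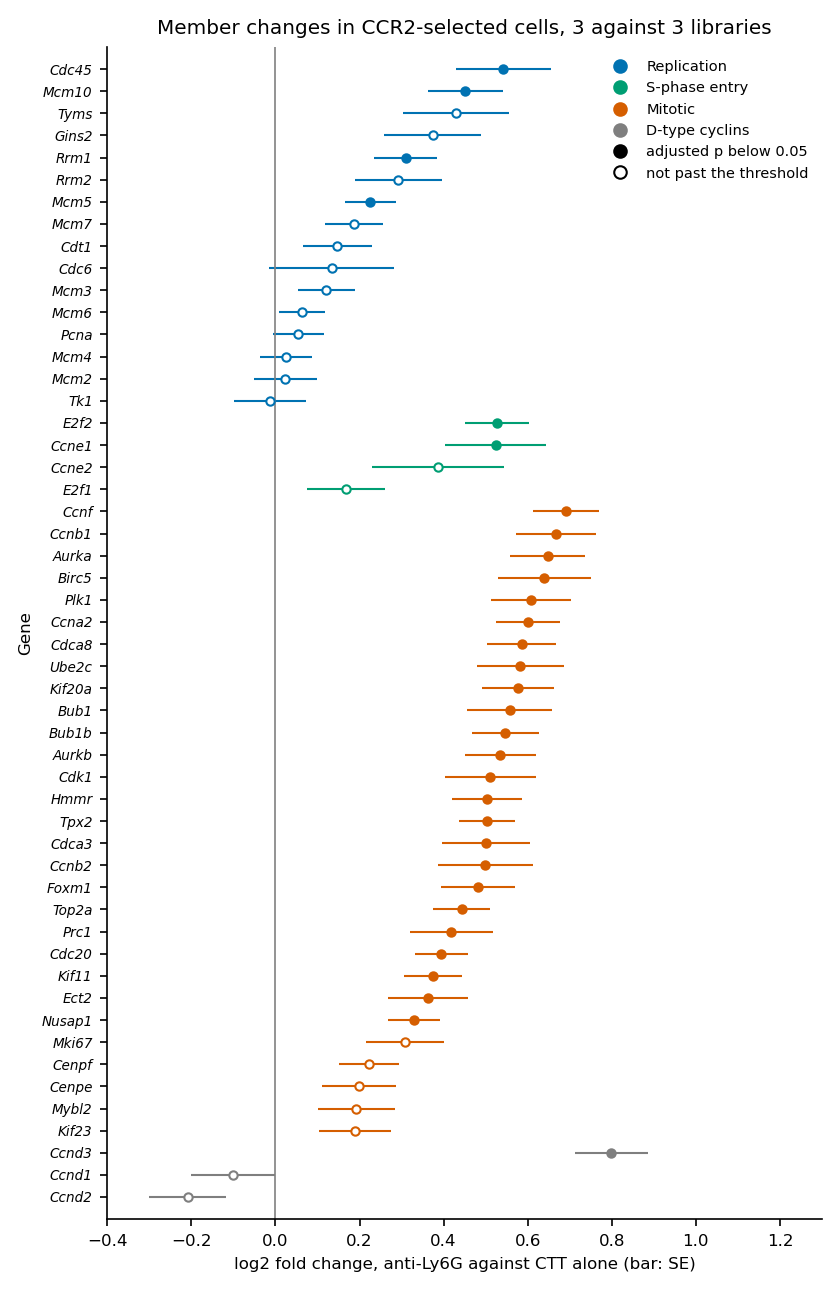
Log2 fold change of each member in CCR2-selected cells, anti-Ly6G against CTT alone (x axis; bars are the SE, n = 3 against 3), ordered by size within each class. Filled points passed an edgeR adjusted p of 0.05: 24 of 29 mitotic genes, 4 of 16 replication genes, 2 of 4 entry genes and Ccnd3.

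Among replication genes, Mcm10, Cdc45, Rrm1 and Mcm5 rose in the same comparison and the other 12 did not pass. Mcm10, a factor that activates the loaded helicase, read 24.8, 22.1 and 24.2 CPM after CTT alone and 35.3, 31.9 and 30.1 CPM with anti-Ly6G. It rose by 0.45 (SE 0.09, edgeR adjusted p = 0.0113), with no overlap. Cdc45, which completes the active helicase, read 23.5, 21.5 and 18.4 CPM against 34.3, 29.3 and 28.7 CPM. It rose by 0.54 (SE 0.11, edgeR adjusted p = 0.0146), the largest change of this class.

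Rrm1, the large subunit of ribonucleotide reductase, read 148, 141 and 130 CPM after CTT alone and 185, 172 and 162 CPM with anti-Ly6G. It rose by 0.31 (SE 0.07, edgeR adjusted p = 0.0251), and its partner Rrm2 had 0.29 and did not pass (adjusted p = 0.0937). Mcm5, a subunit of the helicase ring, read 157, 153 and 152 CPM against 190, 181 and 170 CPM, a log2 difference of 0.23 (SE 0.06, edgeR adjusted p = 0.0384). The other ring subunits Mcm2, Mcm3, Mcm4, Mcm6 and Mcm7 had log2 fold changes of 0.02, 0.12, 0.03, 0.06 and 0.19, and none passed. Tyms, which makes the thymine nucleotide, read 19.3, 20.2 and 18.3 CPM against 30.9, 24.9 and 22.0 CPM, without overlap, and missed the threshold, with 0.43 (SE 0.13, edgeR adjusted p = 0.052). Pcna was nearly level, at 178, 170 and 163 CPM against 172, 185 and 173 CPM (log2 fold change 0.05, SE 0.06, adjusted p = 0.593). Tk1, thymidine kinase, had −0.01 (SE 0.09, adjusted p = 0.934).

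Among the S-phase entry genes, E2f2, an activating E2F factor, read 135, 152 and 135 CPM after CTT alone and 218, 202 and 189 CPM with anti-Ly6G. It rose by 0.53 (SE 0.08, edgeR adjusted p = 0.00278), and no library of the groups overlapped. Ccne1, cyclin E1, which with CDK2 starts replication, read 17.3, 15.6 and 15.8 CPM against 27.3, 20.5 and 22.2 CPM. It rose by 0.52 (SE 0.12, edgeR adjusted p = 0.0216). Ccne2 had 0.39 (adjusted p = 0.131) and E2f1 had 0.17 (adjusted p = 0.26).

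Of the D-type cyclins 1 rose. Ccnd3 (Entrez 12445, chr17:47505051-47599689, GRCm38.p6) read 231, 205 and 200 CPM after CTT alone and 411, 343 and 352 CPM with anti-Ly6G. It rose by 0.80 (SE 0.09, edgeR adjusted p = 0.000739), the largest change and the smallest p of all 52 members in this comparison. Ccnd2, cyclin D2, read 101, 121 and 119 CPM against 90.7, 109 and 95.9 CPM, with overlapping groups and a log2 difference of −0.21 (SE 0.09, edgeR adjusted p = 0.162). Ccnd1, cyclin D1, read 95.7, 104 and 119 CPM against 92.2, 93.0 and 112 CPM (−0.10, SE 0.10, adjusted p = 0.545). RefSeq lists pseudogenes named after Ccnd3, Ccnb1, Ccnb2, Tyms and Pcna. Reads shared with them could be counted for either copy, so these 5 values are uncertain to that extent. Pseudogenes under other names were not searched for, so the other members may share this uncertainty.

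Of the 31 calls, 22 held in all 6 fits that left out 1 library each, among them 19 of the 24 mitotic genes, Mcm10, E2f2 and Ccnd3. The mitotic genes Ccnb2, Cdk1, Cdca3, Prc1 and Ect2, the replication genes Cdc45, Rrm1 and Mcm5, and Ccne1 did not hold in all of them. Cdk1 was called in 4 of the 6 fits. The count of replication calls ranged from 1 to 6. It was 1 without CTT replicate 3 or without anti-Ly6G replicate 1, and 2 without CTT replicate 2 or without anti-Ly6G replicate 2. The count of entry calls was 1 without CTT replicate 2, CTT replicate 3, anti-Ly6G replicate 1 or anti-Ly6G replicate 3.

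Other genes of the pathway were read from separate lists. Of 40 further mitotic genes 25 rose and 0 fell, with a median log2 fold change of 0.37, led by Tacc3, a spindle microtubule protein (0.46, SE 0.07, edgeR adjusted p = 0.00263), Melk, a kinase (0.80, adjusted p = 0.00323), and Stmn1, a microtubule destabiliser (0.48, adjusted p = 0.00535). That count was 13 without CTT replicate 2, 7 without CTT replicate 3, and 8 and 10 without anti-Ly6G replicates 1 and 2. Of 34 further replication genes 0 passed in edgeR, 10 had an unadjusted p below 0.05, 2 rose in DESeq2 and 0 passed in limma-voom, and the median was 0.13. Of these, the fork protein Clspn had 0.28 (adjusted p = 0.053) and the polymerase subunit Pole2 had 0.39 (adjusted p = 0.0552). Of 7 CDK inhibitors 2 rose: Cdkn2d, which holds back CDK4 and CDK6, went from 49.4, 48.8 and 44.6 CPM to 92.7, 93.8 and 77.6 CPM (0.89, SE 0.09, edgeR adjusted p = 0.000468), and Cdkn2c of the same family rose by 0.40 (adjusted p = 0.0481). In the fits that left out 1 library 1 CDK inhibitor rose, except that 3 rose without CTT replicate 1.

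Among 18 G1 kinases, RB-family and DREAM genes, Tfdp1, the partner of E2F factors, and E2f8, a repressive E2F, rose by 0.43 and 0.50 (edgeR adjusted p = 0.00408 and 0.0212), and Tfdp2 fell, with a log2 fold change of −0.44 (adjusted p = 0.0275). Of 14 genes of the anaphase-promoting complex and its regulators 2 rose: its inhibitor Fbxo5 (0.33, edgeR adjusted p = 0.03) and its E2 enzyme Ube2s (0.29, adjusted p = 0.042). Over all genes tested 10.2% rose and 5.12% fell, and the counts in the G1 and anaphase-promoting complex lists were near those shares. Of 7 checkpoint kinases and phosphatases 0 passed in edgeR, DESeq2 or limma-voom, and 3 had an unadjusted p below 0.05. With 1 library left out, 0 to 2 genes of the anaphase-promoting complex list rose (0 without CTT replicate 3 or any of the anti-Ly6G libraries, 1 without CTT replicate 2). Of the G1 list 1 rose without CTT replicate 2, CTT replicate 3, anti-Ly6G replicate 1 or anti-Ly6G replicate 2, and 0 fell without CTT replicate 3, anti-Ly6G replicate 1 or anti-Ly6G replicate 3. Of the checkpoint list 1 fell without CTT replicate 1.

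The calls were also counted by promoter match. Of 18 mitotic genes with a CHR match 15 rose, with a median log2 fold change of 0.50, and of 6 without one 4 rose, with a median of 0.44. Of 6 replication genes with an E2F match 1 rose (Mcm5), with a median of 0.14, and of 8 without one 3 rose, with a median of 0.30. Of the promoters printed above, those of Ccnf, Plk1 and Aurka belong to genes that rose by 0.61 to 0.69. That of Mcm5 belongs to a gene that rose by 0.23, and those of Mcm3 and Mcm6 to genes with 0.12 and 0.06 that did not pass. The printed promoters were picked as examples, and a link between motif and change was not tested.

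Markers of other cells moved with these genes. Of 10 neutrophil precursor markers 9 rose, and their sum went from 2894, 1413 and 1313 CPM after CTT alone to 7082, 5169 and 4389 CPM with anti-Ly6G, with Ltf, a granule protein, rising by 1.74 (SE 0.29, edgeR adjusted p = 0.00539). Of 10 mature neutrophil markers 8 rose, and their sum went from 3732 to 4360 CPM to 9568 to 12171 CPM. Ly6g, the gene of the protein the antibody was given against, read 16.1, 11.7 and 13.1 CPM after CTT alone and 62.7, 57.1 and 48.5 CPM with anti-Ly6G (log2 fold change 2.04, SE 0.14, edgeR adjusted p = 0.000106). No marker of either neutrophil list was at 0 in any library. The precursor count was 6 without CTT replicate 2 or anti-Ly6G replicate 2, and 3 without CTT replicate 3 or anti-Ly6G replicate 1, while the mature neutrophil count was 8 in each of the 6 fits that left out 1 library.

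Of 10 monocyte markers 6 rose and 3 fell (sums of 3394 to 5017 CPM against 3837 to 4473 CPM), with Ccr2 rising by 1.25. Of 10 red pulp macrophage markers 7 fell (9585 to 15902 CPM against 7643 to 8346 CPM), and of 10 B cell markers 2 fell (3859 to 5627 CPM against 2956 to 4094 CPM). Of 16 erythroid markers 1 fell, Slc4a1 (sums of 1428 to 2205 CPM against 855 to 1402 CPM). Of 10 T and NK cell markers 3 rose and 1 fell, of 6 germinal centre B cell markers 1 fell, and of 9 progenitor and megakaryocyte markers 1 rose. Over all genes tested 10.2% rose and 5.12% fell. Of 7 plasma cell and 8 dendritic cell markers 0 passed in edgeR, DESeq2 or limma-voom, with 0 and 1 at an unadjusted p below 0.05. Several of these counts changed when 1 library was left out, which also left fewer libraries to test. In each of those fits 8 or 9 of the 10 red pulp macrophage markers had an unadjusted edgeR p below 0.05. Red pulp macrophage markers that fell numbered 1 without any 1 of the anti-Ly6G libraries and 4 without CTT replicate 3, and monocyte markers that fell numbered 0 without any 1 of the anti-Ly6G libraries and 1 without CTT replicate 3. All 10 B cell markers had an unadjusted p below 0.05: 9 fell in DESeq2, 10 without CTT replicate 1, 1 without anti-Ly6G replicate 3 and 0 without any of the other 4. Erythroid markers that fell numbered 4 in DESeq2 and 0 to 2 when 1 library was left out (2 without CTT replicate 3, 1 without anti-Ly6G replicate 2, otherwise 0). With 1 library left out, T and NK cell markers had 1 to 3 that rose (1 without CTT replicate 2, anti-Ly6G replicate 2 or anti-Ly6G replicate 3) and 1 to 3 that fell (3 without CTT replicate 1). Progenitor and megakaryocyte markers that rose numbered 4 without CTT replicate 1 and 0 without any of the others. Germinal centre markers that fell numbered 4 without anti-Ly6G replicate 2 and 0 without CTT replicate 2, anti-Ly6G replicate 1 or anti-Ly6G replicate 3. The part of these markers in the changes of the mitotic genes was not tested.

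In Ly6G-selected cells 12 h after CTT, every member was lower on average than in controls. For most members much of the size of the difference came from 1 control library. By edgeR's quasi-likelihood test 0 of 52 members passed in either direction (adjusted p of 0.305 to 0.625 over 13058 genes), where 0.567% of all genes rose and 0% fell. At an unadjusted p below 0.05 there were 23 members, all lower, against 5.74% of all genes tested that were lower at that level. DESeq2 called 2 members lower, Mcm10 (adjusted p = 0.0211) and Tyms (adjusted p = 0.0483), and limma-voom and limma-trend on FPKM called 0. All 52 log2 fold changes were negative, against 52.1% of all genes. In 14 members the 3 CTT libraries were all below the 3 controls, against 11% of all genes. Median log2 fold changes were −1.32 for replication genes, −1.41 for entry genes, −1.20 for mitotic genes and −0.31 for D-type cyclins.

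Control replicate 1 was the highest of the 6 libraries in 51 of the 52 members, all but Ccnd1. Its level was 0.89 to 7.26 times the mean of control replicates 2 and 3, with a median of 3.86, and Ccne2 and Rrm2 stood at the top (7.26 and 6.78 times). The 52 members summed to 12465 CPM in it, to 3752 and 3221 CPM in the other controls and to 3402, 2710 and 2729 CPM after CTT. The 16 erythroid markers, of which 0 passed in edgeR, 15 had an unadjusted p below 0.05, 4 fell in DESeq2 and 0 passed in limma-voom, summed to 17067, 2828 and 923 CPM in the controls and to 1114, 836 and 450 CPM after CTT. Hba-a1, an alpha globin gene, read 2103, 375 and 112 CPM in the controls and 102, 95.4 and 62.7 CPM after CTT. The 10 B cell markers summed to 3140 CPM in that library and to 7080 and 7903 CPM in the other controls. All 16 erythroid markers were above 0 in every library, and their part in the result was not tested.

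Without control replicate 1 the differences were smaller. The median log2 fold change was then −0.38 for replication genes, −0.32 for entry genes, −0.21 for mitotic genes and −0.28 for D-type cyclins, and 48 of 52 were negative, against 50.7% of all genes. Again 0 members passed in edgeR (1.93% of all genes rose and 0.233% fell). At an unadjusted p below 0.05 there were 10 of 16 replication genes, 2 of 4 entry genes, 2 of 29 mitotic genes (Top2a and Aurkb) and Ccnd2, all lower, against 5.93% of all genes. In 8 replication genes and 3 mitotic genes the 3 CTT libraries were below both remaining controls, against 17.5% of all genes.

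**Figure D5:**
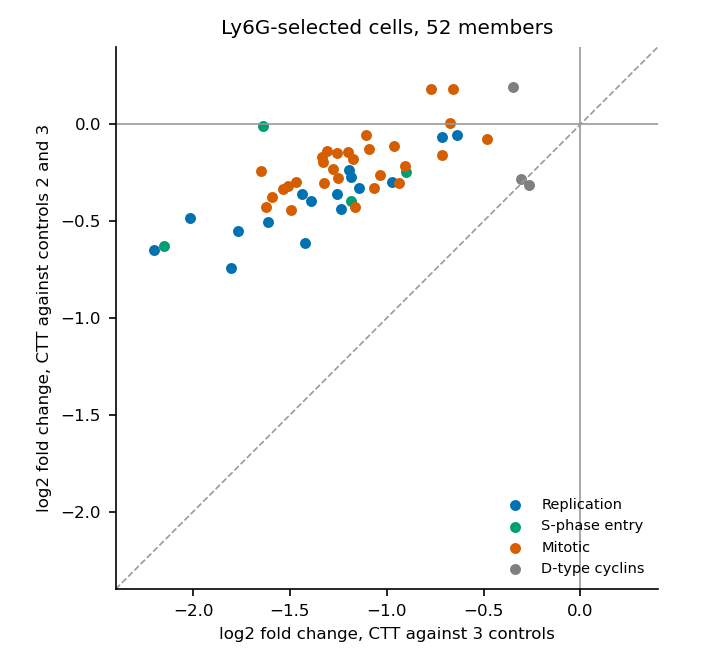
Log2 fold change of each member in Ly6G-selected cells, CTT against all 3 controls (x axis) and against control replicates 2 and 3 (y axis), coloured by class, with a dashed line of equality. All but 2 of the points, Ccnd1 and Ccnd2 among the D-type cyclins, lie well above the line, and the replication genes reach the lowest values on the y axis.

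Mcm10 read 97.9, 24.7 and 21.3 CPM in controls and 15.2, 14.4 and 11.5 CPM after CTT. The CTT libraries were the 3 lowest, at −1.81 on the log2 scale (SE 0.59, edgeR adjusted p = 0.305), or −0.74 (SE 0.16, adjusted p = 0.0616) without control replicate 1. Gins2, a subunit of the active helicase, read 29.3, 10.2 and 7.94 CPM against 5.84, 5.94 and 5.93 CPM, again without overlap. Its log2 fold change was −1.42 (SE 0.48, edgeR adjusted p = 0.317), or −0.61 (adjusted p = 0.157) without that library. Mcm3, a helicase subunit, read 403, 133 and 119 CPM against 96.8, 87.3 and 94.4 CPM. It had −1.23 (SE 0.46, edgeR adjusted p = 0.341), and −0.43 (SE 0.09, adjusted p = 0.0544) without that library, the smallest p of all members in that fit.

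Among nucleotide synthesis genes, Rrm2, the small subunit of ribonucleotide reductase, read 603, 111 and 66.6 CPM in controls and 71.5, 53.1 and 45.1 CPM after CTT, so control replicate 3 fell among the CTT libraries. Its log2 fold change was −2.20 (SE 0.79, edgeR adjusted p = 0.334), the largest in size, and −0.65 (adjusted p = 0.236) without control replicate 1. Tyms read 97.0, 21.5 and 17.5 CPM against 15.7, 11.5 and 12.7 CPM, with −1.77 (SE 0.65, edgeR adjusted p = 0.339). Pcna read 497, 200 and 169 CPM against 170, 167 and 190 CPM, with overlapping groups. It had −0.71 (SE 0.39, edgeR adjusted p = 0.412), and −0.06 without control replicate 1.

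Ccne1 read 180, 35.4 and 19.0 CPM in controls and 24.0, 17.1 and 11.6 CPM after CTT (−2.15, SE 0.81, edgeR adjusted p = 0.344). The groups overlapped. E2f1, an activating E2F factor, read 73.9, 22.5 and 24.0 CPM against 15.7, 19.7 and 17.5 CPM, without overlap (−1.19, SE 0.46, edgeR adjusted p = 0.347). Without control replicate 1 the values were −0.63 for Ccne1 and −0.39 for E2f1.

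Of the mitotic genes 3 of 29 had no overlap between the groups, Aurkb, Top2a and Bub1. That is near the share of all genes tested, of which 11% had all CTT libraries below all controls. Aurkb, the Aurora B kinase, read 76.8, 27.9 and 23.4 CPM in controls and 21.0, 17.0 and 19.1 CPM after CTT (−1.17, SE 0.44, edgeR adjusted p = 0.344). Top2a read 461, 180 and 170 CPM against 157, 128 and 139 CPM (−0.94, SE 0.38, edgeR adjusted p = 0.351). Both also lay below control replicates 2 and 3, at −0.43 and −0.30 without control replicate 1. Cdk1 read 100, 27.7 and 20.0 CPM against 22.2, 14.0 and 16.3 CPM, and Ccnb1 read 159, 38.5 and 26.9 CPM against 31.5, 18.1 and 23.1 CPM. In both genes CTT replicate 1 was above control replicate 3.

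Ccna2 read 400, 92.2 and 69.9 CPM in controls and 83.6, 53.9 and 49.2 CPM after CTT, with overlap. Ube2c read 179, 39.8 and 34.4 CPM against 35.2, 23.6 and 30.0 CPM. Mki67 read 1680, 383 and 324 CPM against 408, 287 and 267 CPM, so that CTT replicate 1 was above 2 of the 3 controls. The log2 fold changes of Ccna2, Ube2c and Mki67 were −1.59, −1.51 and −1.31 (edgeR adjusted p = 0.351, 0.351 and 0.377), and −0.38, −0.32 and −0.14 without control replicate 1.

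Ccnd1 read 100, 110 and 115 CPM in controls and 62.3, 101 and 108 CPM after CTT, and Ccnd2 read 107, 107 and 98.8 CPM against 79.8, 85.7 and 87.1 CPM. In neither was control replicate 1 far from the other controls, and Ccnd2 did not overlap (−0.31, SE 0.11, edgeR adjusted p = 0.322). Ccnd3 read 398, 181 and 158 CPM against 202, 179 and 199 CPM. Its log2 fold change was −0.35 (SE 0.34, edgeR adjusted p = 0.625), and 0.19 (adjusted p = 0.391) without control replicate 1, so its direction turned with that library.

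Of the pathway lists, 0 genes passed in edgeR in this comparison, and without control replicate 1 2 further replication genes fell and 1 CDK inhibitor rose. The 34 further replication genes were all lower (median −1.10, 21 at an unadjusted p below 0.05, 3 lower in DESeq2, 0 called in limma-voom). The 40 further mitotic genes had a median of −0.98 (9 at an unadjusted p below 0.05, 0 called in DESeq2 or limma-voom). Without control replicate 1 those edgeR counts were 13 and 6. The further replication genes summed to 3460, 1273 and 1191 CPM in controls and to 1067, 939 and 897 CPM after CTT. The further mitotic genes summed to 3745, 1460 and 1378 CPM against 1456, 1181 and 1166 CPM. In both lists control replicate 1 was far above every other library. Cdkn1a, the CDK inhibitor p21, was in the other direction: it read 22.5, 37.4 and 33.4 CPM in controls and 87.3, 70.5 and 129 CPM after CTT. All CTT libraries were above all controls, and the log2 fold change was 1.62 (SE 0.28, edgeR adjusted p = 0.0799). It was 1 of 7 CDK inhibitors, of which 1 had an unadjusted p below 0.05 and 1 rose in DESeq2. Among 18 G1 kinases, RB-family and DREAM genes 2 had an unadjusted p below 0.05, among 14 genes of the anaphase-promoting complex 1, and among 7 checkpoint genes 1, with 0 called in DESeq2 or limma-voom. Of the cell lists, mature neutrophil markers had 3 of 10 that rose (Il1r2, Mmp8 and Retnlg), and 0 genes of the other 10 lists passed in edgeR. Without control replicate 1, 5 mature neutrophil markers and 1 plasma cell marker rose and 1 B cell marker fell, and without any of the other 5 libraries the mature neutrophil count was 0. In DESeq2 4 erythroid markers fell, and 8 mature neutrophil markers, 3 neutrophil precursor markers and 1 marker each of monocytes, plasma cells and red pulp macrophages rose. Neutrophil precursor markers had 7 of 10 at an unadjusted p below 0.05, and their sum was 1919, 2991 and 2291 CPM in controls and 3578, 2426 and 6212 CPM after CTT.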

How the data were processed

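For each cell type the authors deposited 1 table of raw read counts and 1 table of FPKM values. TRIzol and a VAHTS Universal V6 kit were used for extraction and libraries, per the labels' protocols. The submitters' processing notes name HISAT2, HTSeq and mm10. Their versions, the annotation and strandedness were not given in the sources used, so reads of overlapping or antisense genes could be counted for either gene. Within each gene the deposited FPKM kept a constant ratio to the count divided by the library total (coefficient of variation above 1% in 0 genes). Gene lengths were not checked.

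Counts were tested as deposited with edgeR 4.0.16 in R 4.3.3, each cell type separately. Genes were kept by filterByExpr (13058 and 13294 genes), scaled by TMM and tested by the two-sided quasi-likelihood F test, and p-values were adjusted by Benjamini-Hochberg over every gene tested (threshold 0.05). CPM values are TMM-scaled. Standard errors are approximate, the absolute log2 fold change divided by the square root of F. Genes varied between replicates with a common coefficient of variation of 0.275 in Ly6G-selected and 0.114 in CCR2-selected cells, so smaller changes could be called in the latter. At these depths reads limit the precision of the lowest genes only. No replicate pair matched within sampling noise (chi-square over its degrees of freedom at least 12.6, genes with at least 10 counts). The fit was run on simulated data with 200 changed genes, where only median log2 fold changes were required to match. The simulation gave every gene the same spread and held no outlying library. It therefore does not measure how reliable the calls are here.

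Promoters and gene positions came from RefSeq tables of build GRCm38.p6. The members, gene lists and motifs were chosen with earlier results of these data known. Values in every library are given for the members of smallest p in each class (5 replication, 2 entry, 6 mitotic), the 3 D-type cyclins, Mki67, Top2a and Pcna, and up to 3 genes of each other list are named. Alternatives were DESeq2 size factors, library totals, no filter, 1 CPM or more in 3 libraries, the DESeq2 1.42.0 test, limma-voom and limma-trend (limma 3.58.1) on log2 of FPKM plus 1 or 0.1, the replicate number as a block, and leaving out each library. All value columns matched a sample by name.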

Additional observations from a re-analysis of the deposited data

How the results depend on the processing

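In CCR2-selected cells the count of mitotic genes that rose (24) was 19 to 26 when 1 library was left out, the count of members that rose (31) was 22 to 35, of replication genes (4) 1 to 6 and of entry genes (2) 1 to 2. All genes that rose (1354) numbered 706 to 1687 and all genes that fell (681) numbered 177 to 1168 in those fits, with 1168 without CTT replicate 1, 278 without CTT replicate 3, and 177, 318 and 281 without anti-Ly6G replicates 1, 2 and 3. Without CTT replicate 1 a member fell, Ccnd2, so that D-type cyclins and members that fell numbered 0 to 1. DESeq2 called 1204 genes lower. The cause was not tested. Mcm2, Mcm4 and Tk1, all near 0, changed sign when 1 library was left out (−0.04 to 0.07, −0.01 to 0.07 and −0.07 to 0.05), and Mcm2 and Mcm4 also with library totals and on FPKM. No other member changed sign in this comparison under the alternatives run.

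In Ly6G-selected cells the count of all genes that rose (74) was 455 in DESeq2, 44 in limma-trend on log2(FPKM + 1), and 0 to 257 when 1 library was left out, with 257 without control replicate 1 and 0 without any of the other 5. Genes that fell (0) numbered 107 in DESeq2, 1 in limma-trend with either pseudocount, and 0 to 31 when 1 library was left out. DESeq2 called 2 replication genes and thus 2 members lower, and 0 members passed in any other alternative run. Ccnd3 had log2 fold changes of −0.58 to 0.19 when 1 library was left out, turning direction without control replicate 1, as did Cenpe, Nusap1 and Ect2 (0.18, 0.01 and 0.19). The cause was not tested.

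Whether the replicate numbers pair the samples could not be settled from 3 libraries a group. Deviations of same-numbered libraries from their group means correlated at 0.248, 0.000146 and 0.234 in Ly6G-selected cells. In CCR2-selected cells these values were 0.167, −0.0558 and 0.222. Those of libraries with different numbers ran from −0.258 to 0.222 in Ly6G-selected and from −0.234 to 0.087 in CCR2-selected cells. Fitted with a replicate block, Ly6G-selected cells had 4 genes that rose and 1 that fell, and 0 members passed. In CCR2-selected cells the block gave 34 members that rose (25 mitotic, 6 replication) and 1 member that fell, the D-type cyclin Ccnd2, and 1043 genes that fell overall. A member that missed the threshold in either cell type is not shown to be unchanged.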
